A study of Arabidopsis thaliana with 4 samples.

Results

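The genes described here encode the enzymes of carbon fixation and photorespiration in Arabidopsis thaliana. They were chosen by locus identifier as the small subunits of rubisco and rubisco activase, the Calvin cycle enzymes, the CP12 regulators, carbonic anhydrase CA1, and the photorespiratory enzymes between phosphoglycolate phosphatase and glycerate kinase together with catalase CAT2. All 40 loci were in the count table, out of 32678 loci in all. Of the 40, 23 belong to the Calvin cycle and 17 to photorespiration. A locus is measurable here mainly when the table lists it with 1 transcript model, which held for 12 Calvin cycle genes and 4 photorespiratory genes. The other 24 loci have several models and are described at the end by their summed counts.

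The study measured the transcriptome of the rosette core, the middle 1.5 to 2 cm of the rosette, by strand-specific sequencing of ribosome-depleted total RNA on an Ion Proton. All 4 libraries came from untreated Col-0 plants, the wild-type reference accession, at 31 days of age. Plants grew on soil at 22 °C and 100 µE of light under 16-hour days, after 1 to 2 days of cold at 4 °C. The labels give 1 group and no contrast, and do not say whether the cores came from separate plants, so every p-value reflects only how far these 4 libraries lie apart, which could be technical.

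The Calvin cycle is the set of chloroplast reactions that fixes CO2. Rubisco joins CO2 to ribulose bisphosphate, the reduction steps turn the product into triose phosphate with ATP and NADPH, and the regeneration steps rebuild the acceptor. Rubisco also reacts with oxygen, and photorespiration recycles the phosphoglycolate this makes through chloroplast, peroxisome and mitochondrion, where glycine decarboxylase and serine hydroxymethyltransferase turn glycine into serine. Both pathways are most active in green leaf tissue, whereas a rosette core also holds the shoot apex and young leaves.

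Libraries held 5639486 to 7692788 counts. The tissue label was set against marker genes. The leaf photosynthetic markers LHCB6, LHCB5, PSAD-1 and PSBO1 summed to 7345 to 11958 CPM, counts scaled to library size, the meristem markers STM and KNAT1 to 195 to 603 CPM and the dividing-cell markers CDKA;1 and CYCB1;1 to 191 to 238 CPM. Of the root markers, EXPA7 had no count and RHD6 had 1 count in 1 core. Core 2 had the lowest leaf photosynthetic sum and the highest meristem sum.

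The upstream stretches of 3 genes are given here for reference beside their levels. RBCS2B and RBCS1B are shown because they differed most between cores, and PRK because it is the other member with a G-box. Each is 250 bases before the annotated start, read from the RefSeq TAIR10.1 assembly and printed 5′ to 3′ on the gene's strand, and none of the 3 overlaps an annotated exon. Capitals mark the G-box CACGTG and the I-box GATAAG, short motifs known from light-regulated plant promoters; CTTATC in capitals is an I-box on the other strand. The windows are chr5:15382072-15382321 (minus strand) for RBCS2B, chr5:15385321-15385570 (minus strand) for RBCS1B and chr1:11531949-11532198 (plus strand) for PRK.
RBCS2B: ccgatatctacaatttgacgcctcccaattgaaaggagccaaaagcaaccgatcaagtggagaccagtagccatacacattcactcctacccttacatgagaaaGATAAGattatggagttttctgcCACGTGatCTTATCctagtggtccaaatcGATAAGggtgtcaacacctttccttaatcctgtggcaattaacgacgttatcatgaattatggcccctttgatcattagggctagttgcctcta
RBCS1B: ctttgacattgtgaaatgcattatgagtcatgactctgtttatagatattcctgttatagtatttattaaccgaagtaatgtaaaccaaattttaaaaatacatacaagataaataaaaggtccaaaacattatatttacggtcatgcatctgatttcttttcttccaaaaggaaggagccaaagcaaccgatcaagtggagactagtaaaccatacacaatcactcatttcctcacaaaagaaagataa
PRK: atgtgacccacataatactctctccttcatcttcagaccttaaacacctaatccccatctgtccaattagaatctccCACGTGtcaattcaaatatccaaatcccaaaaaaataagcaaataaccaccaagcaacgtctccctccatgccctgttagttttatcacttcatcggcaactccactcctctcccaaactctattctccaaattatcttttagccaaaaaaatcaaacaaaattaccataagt

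RBCS2B carried a G-box 123 bases before its start with an I-box on each side of it, at 146 and 115 bases, and a further I-box at 94 bases, none of them overlapping. The PRK window had a G-box at 173 bases and no I-box. The RBCS1B window had neither motif, but the gene has a second annotated start 73 bases downstream, and the 250 bases before that one hold a pair of I-boxes, at 78 and 73 bases, that overlap by 1 base. RBCS1B and RBCS2B share a run of 23 bases, aaagcaaccgatcaagtggagac, which begins 69 bases before the start of RBCS1B and 209 bases before that of RBCS2B. The longest run shared on the same strand had a median of 8 bases over the 120 pairs of member windows, and the next longest was 12. Searched on both strands, the G-box occurred in 2 of the 16 member windows and in 6.49% of 27443 windows of the same length upstream of protein-coding genes. The I-box occurred in 4 of 16 member windows, those of RBCS2B, CP12-2, CP12-3 and GLDP2, and in 12.3% of all windows. The TATA motif TATAAA occurred in 5 of 16 member windows, those of RBCS1B, SBPASE, RPI3, GLDH1 and SHM1, and in 47.3% of all windows. Some member windows overlap annotated exons, by 250 bases in GAPA1, 237 in PGK1, 214 in GLDH1, 196 in GAPB and 128 in CP12-2. The other windows overlap exons less or not at all. The motif matches describe letters only, and no binding was measured.

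All 16 measurable genes were expressed in every core, and they filled a wide range of levels. The least abundant, CP12-3, averaged 12.9 CPM, and the most abundant, GAPA1, averaged 2736 CPM, which ranked it number 15 of 20912 nuclear protein-coding genes with 1 model. Per kb of annotated exon, 15 of the 16 lay above percentile 93.0 of those genes, and CP12-3 lay at percentile 69.8.

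**Figure D1:**
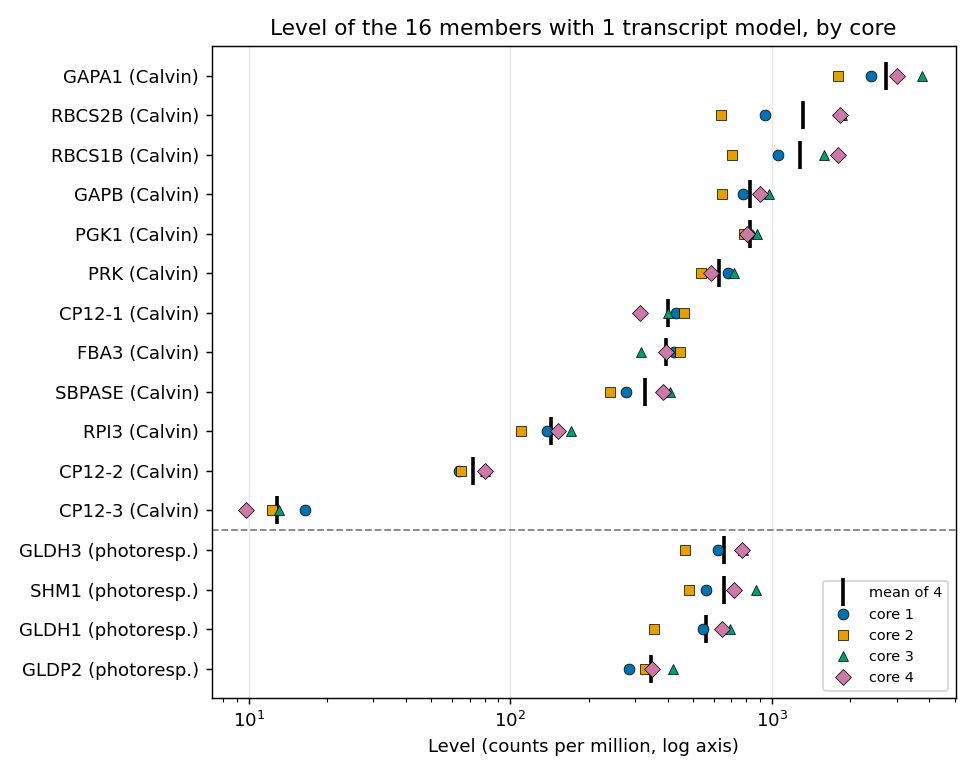
Level of each measurable gene in CPM on a log axis, with 1 symbol for each of the 4 cores and a vertical bar for their mean; Calvin cycle genes are above the dashed line and photorespiratory genes below it. Core 2 is the lowest symbol for most genes, whereas PGK1 lies between 787 and 881 CPM and hardly spreads.

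Rubisco was read here through the small subunit genes RBCS1B (AT5G38430) and RBCS2B (AT5G38420), which lie side by side on chromosome 5 with 1095 bases between them (chr5:15383167-15385320 and chr5:15380907-15382071, both on the minus strand, 3 exons each). RBCS2B had 946, 639, 1863 and 1819 CPM in cores 1 to 4. RBCS1B had 1056, 704, 1582.5 and 1799 CPM. In both genes cores 3 and 4 were high, core 1 was intermediate and core 2 was lowest, and the highest core exceeded the lowest by 2.92-fold in RBCS2B and 2.56-fold in RBCS1B. No other member spread as widely. The coding sequences of these genes are 97.3% identical, with identical stretches of up to 89 bases, and how reads that match several places were counted is not given in the sources used here, so the split between them is uncertain. The same holds for RBCS3B and RBCS1A, whose loci have several models. RBCS3B has 94.1% identity to RBCS1B, with an identical stretch of up to 230 bases, and RBCS1A has 89.9%, with up to 56 bases.

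The reduction steps were represented by 3 of 4 genes. GAPA1, listed as GAPA in RefSeq (AT3G26650, chr3:9794862-9797045, plus strand, 5 exons), encodes the A subunit of the chloroplast glyceraldehyde-3-phosphate dehydrogenase and had 2398, 1799, 3744 and 3003 CPM in cores 1 to 4. GAPB (AT1G42970, chr1:16127353-16129895, plus strand, 9 exons), the B subunit of the same enzyme, had 776, 643, 975 and 901 CPM. Both genes kept 1 order of cores, lowest in core 2 and highest in core 3. PGK1, the phosphoglycerate kinase that precedes them in the cycle (AT3G12780, chr3:4060920-4063306, minus strand), had 816, 787, 881 and 806 CPM, a coefficient of variation of 4.98%. Its squared spread, as edgeR's quasi-dispersion, was 0.0972 of that of genes at its level, and 4.01% of the genes tested had a lower such ratio. PGK1 and its paralogue PGK2, which has several models, are 86.3% identical in coding sequence.

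Among the regeneration enzymes, 4 of 10 could be read, and FBA3 ran against the rest. SBPASE (AT3G55800, chr3:20709294-20711640, plus strand), the sedoheptulose bisphosphatase that commits carbon to regeneration, had 278, 241, 408 and 382 CPM in cores 1 to 4. PRK (AT1G32060, chr1:11532199-11534639, plus strand), the phosphoribulokinase that makes the CO2 acceptor, had 679, 536, 714 and 587 CPM. The plastid ribose-5-phosphate isomerase RPI3, named EMB3119 in RefSeq (AT3G04790, chr3:1313297-1314288, plus strand), had 138, 109.9, 172 and 153 CPM. These 3 genes were all lowest in core 2 and highest in core 3. FBA3, a plastid fructose-bisphosphate aldolase that RefSeq lists as PDE345 (AT2G01140, chr2:94727-96863, minus strand), had 422, 445, 318 and 394 CPM, highest in core 2 and lowest in core 3. Exons of RPI3 overlap a gene of the opposite strand, AT3G01505, over 23.7% of their length, and whether the counting used strand is not given.

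The CP12 genes encode small chloroplast proteins that bind glyceraldehyde-3-phosphate dehydrogenase and phosphoribulokinase and hold them inactive in the dark. All 3 have 1 model, and none had the order of cores seen in GAPA1, GAPB or PRK. CP12-1 (AT2G47400, chr2:19446730-19447642, plus strand) had 430, 461, 401 and 314 CPM in cores 1 to 4. CP12-2 (AT3G62410, chr3:23090944-23091580, plus strand) had 63.6, 64.8, 80.3 and 80.2 CPM. CP12-3 (AT1G76560, chr1:28728206-28728976, plus strand) had 16.5, 12.3, 13.0 and 9.75 CPM, from 52 to 118 counts. CP12-1 was thus highest in core 2, CP12-2 was high in cores 3 and 4 and nearly equal in cores 1 and 2, and CP12-3 was highest in core 1. Both CP12-1 and CP12-3 were lowest in core 4.

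Photorespiration could be read only at the mitochondrial step from glycine to serine. GLDP2 (AT2G26080, chr2:11109003-11114291, minus strand), a P protein of glycine decarboxylase, the subunit that removes the carboxyl group, had 284, 328, 419 and 349 CPM in cores 1 to 4. GLDH1, named GDCH in RefSeq (AT2G35370, chr2:14891041-14892298, plus strand), an H protein that carries the reaction intermediate between subunits, had 544, 356, 693 and 645 CPM. AT1G32470 (chr1:11739304-11740399, minus strand), annotated to the glycine cleavage complex and labelled GLDH3 in the plots, had 623, 467, 776 and 773 CPM. SHM1 (AT4G37930, chr4:17831731-17835017, minus strand), the serine hydroxymethyltransferase of leaf mitochondria, had 561, 482, 873 and 718 CPM. All 4 were highest in core 3, and all but GLDP2, which was lowest in core 1, were lowest in core 2. GLDH1 and AT1G32470 are 87.6% identical in coding sequence, with identical stretches of at most 34 bases.

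Every measurable gene varied between cores by more than counting noise, which sets little apart at this depth. A chi-square test of the counts against Poisson sampling, with Benjamini-Hochberg adjustment over all 12804 genes tested, called 16 of 16 members at an adjusted p under 0.05, against a background of 63.9% of all genes tested. Among genes with a mean of at least 100 CPM the background was 92.5%, so the members' count is near that of any well-expressed gene. The weakest calls were CP12-3, with an adjusted p of 0.0197, and CP12-2, with 0.000105. The call of CP12-3 was lost without core 1 (adjusted p = 0.308) and without core 4 (0.126), and that of PGK1 (adjusted p = 5.29e-08) without core 3 (0.142).

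A stricter question is whether a member spread more than other genes of its level. edgeR's quasi-likelihood fit, with Benjamini-Hochberg adjustment, called 0 of the 16 members and 0 of the 12804 genes, a background of 0%. In counts simulated at the dispersion of genes of the same level, this test recovered 0% of 1.5-fold changes. It recovered 16% of 2-fold and 92% of 4-fold changes. The lack of calls therefore does not show that the members spread like other genes. Before adjustment, the edgeR fit gave RBCS2B a p of 0.0222 and RBCS1B a p of 0.0460. These were the 2 members under 0.05, against a background of 5.19% of all genes tested and 7.11% of those with at least 100 CPM. The p of RBCS1B was above 0.05 without core 1 (0.0565), core 2 (0.0813) or core 4 (0.0690), which left RBCS2B as the 1 member under it. With no filter on low counts the same test called 431 genes of 22869, among them RBCS2B (adjusted p = 0.0320). The ratio of a gene's quasi-dispersion to the trend had a median of 1.25 in the Calvin cycle genes, 2.57 in the photorespiratory genes and 0.928 in all genes tested. It was 9.50 for RBCS2B and 6.33 for RBCS1B. The highest core exceeded the lowest by a median of 1.61-fold over the members. That median was 1.45-fold over all genes tested and 1.37-fold over those with at least 100 CPM.

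The members moved between cores mostly in 1 direction. Core 2 was the lowest core for 11 of 16 members, 8 of 12 in the Calvin cycle and 3 of 4 in photorespiration, against 28.3% of all genes tested and 39.9% of those with at least 100 CPM. Core 3 was the highest for 12 of 16 members, 8 of 12 in the Calvin cycle and 4 of 4 in photorespiration, against 32.0% of all genes tested and 33.0% of those with at least 100 CPM. The exceptions at the high end were RBCS1B, the 1 member of 16 highest in core 4 (20.1% of all genes tested, 24.3% of the abundant ones), FBA3 and CP12-1, highest in core 2, and CP12-3, highest in core 1. FBA3 was the 1 member of 16 lowest in core 3, where 27.0% of all genes tested and 29.0% of the abundant ones were lowest. CP12-1 and CP12-3 were the 2 of 16 lowest in core 4, against 22.2% of all genes and 15.4% of the abundant ones.

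**Figure D2:**
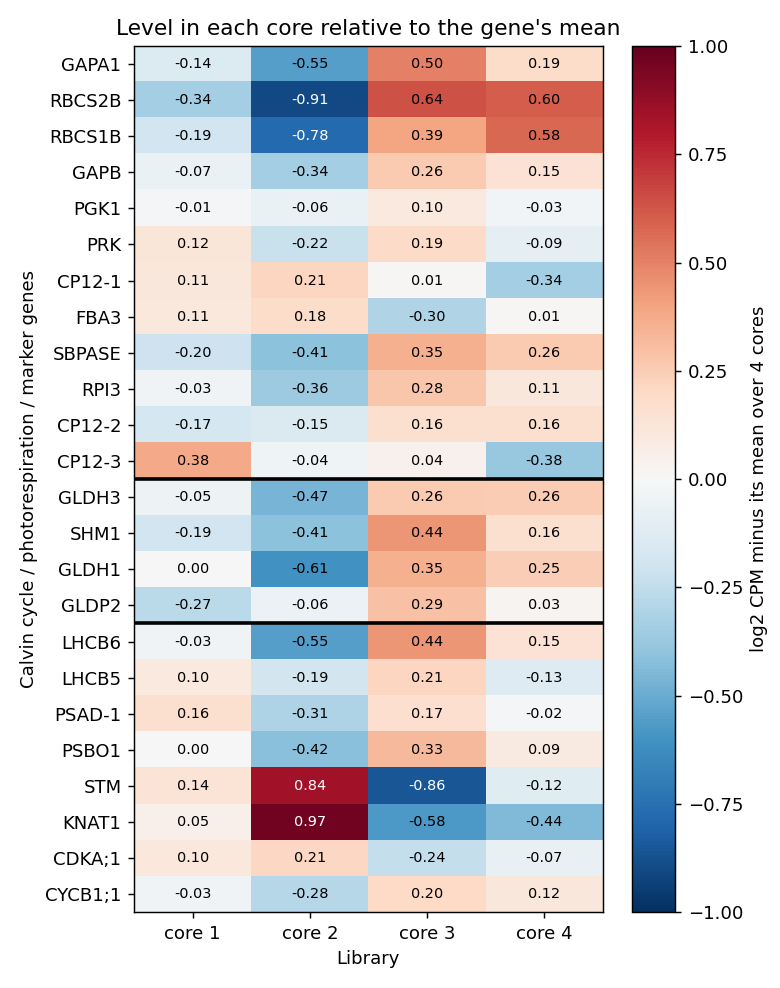
Log2 CPM of each gene in each core minus the gene's own mean over the 4 cores. Calvin cycle genes are above the first line and photorespiratory genes below it. Leaf and meristem markers and cell-cycle genes are below the second line. Red is above the mean and blue below. Core 2 is blue and core 3 red for most members, from -0.91 and 0.64 in RBCS2B to 0.18 and -0.30 in FBA3, which has the opposite signs.

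Both pathways had their lowest median in core 2 and their highest in core 3. The median Calvin cycle gene deviated from its own mean by -0.05, -0.28, 0.23 and 0.13 log2 units in cores 1 to 4. The median photorespiratory gene deviated by -0.12, -0.44, 0.32 and 0.21. Their difference, Calvin cycle minus photorespiration, was 0.07, 0.16, -0.10 and -0.07 and so spanned 0.257 log2 units, less than the 0.508 that the Calvin cycle median and the 0.764 that the photorespiratory median spanned. Over all genes tested the median deviation spanned 0.0221. Library scaling holds that median near 0, so it gives no scale for the median of a few genes. Without core 2 the difference between the pathways spanned 0.166, and the chi-square test called 16 of 16 members and 52.3% of all genes tested.

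Other measures were set beside this shift, and not all of them followed it. The summed level of the 12 Calvin cycle genes was 8019, 6440, 11153 and 10249 CPM in cores 1 to 4, and that of the 4 photorespiratory genes 2012, 1633, 2760 and 2484 CPM. The 4 leaf photosynthetic markers summed to 9862, 7345, 11958 and 9951 CPM, also lowest in core 2 and highest in core 3. The 2 meristem markers summed to 345, 603, 195 and 270 CPM, in the opposite order at both ends. Organelle genes took 2.89%, 3.04%, 5.06% and 3.51% of all counts, highest in core 3 but lowest in core 1. The phloem marker SUC2 had 73.4, 67.2, 102 and 56.6 CPM, lowest in core 4. The bundle sheath marker SULTR2;2 had 15.1, 17.2, 16.6 and 15.4 CPM, highest in core 2. Of the cell-cycle genes, CDKA;1 was highest in core 2 and CYCB1;1 lowest there. The part of these differences in the members' shift was not tested, and in bulk cores fewer cells of a type and less RNA per cell cannot be told apart.

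Per kb of exon, the medians of both pathways stood far above that of all genes, and the difference between them was smaller than its spread over cores. The median of log2 CPM per kb was 8.48 ± 0.18 in the Calvin cycle and 8.75 ± 0.40 in photorespiration (SD, n = 4 cores), against 2.28 ± 0.05 over all protein-coding genes with 1 model. These medians correspond to 357 CPM per kb, 430.4 CPM per kb and 4.86 CPM per kb. Calvin cycle minus photorespiration was -0.06, 0.05, -0.48 and -0.60 log2 units in cores 1 to 4, a mean of -0.27 ± 0.32, so it changed sign between cores. The comparison covers 12 of 23 Calvin cycle genes against 4 of 17 photorespiratory genes of a single reaction step, so it does not compare the whole pathways. Without the RBCS genes, which have near-identical copies, the difference was -0.64, and without the CP12 genes it was -0.035.

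By role, the rubisco genes reached 679 and 1408 CPM per kb, and the reduction genes 444 to 1562 with a median of 452 CPM per kb. The regeneration genes ran from 144 to 333 CPM per kb and the regulators from 16.7 to 439.9. The photorespiratory genes ran from 86.9 for GLDP2 to 796 for AT1G32470. These values depend on exon length, and per coding kb the order changed. RBCS1B and RBCS2B then had 2354 and 2411 CPM, above GAPA1 at 2297. CP12-1 had 1071 CPM per coding kb, above PRK at 530, the highest of the regeneration genes.

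Ratios between genes of related function were compared within each core. Of 31 such pairs, 9 had enough counts and 1 model in both genes, and all 9 kept their sign in 4 of 4 cores. An exact sign-flip test over 4 cores cannot give a two-sided p below 0.125, so no pair could pass a threshold of 0.05. GAPB over GAPA1 was -1.71, -1.57, -2.02 and -1.82 as log2 of the ratio per kb in cores 1 to 4, a mean of -1.78 ± 0.19. The RNA of GAPB thus stood at 0.291 of the level of GAPA1, and the ratio was lowest in core 3, where GAPA1 was highest. A second A subunit gene, GAPA2, has several models and is not in this ratio, which therefore does not give the proportion of the subunits. CP12-2 over CP12-1 averaged -1.95 ± 0.40 per kb of exon and -2.55 per coding base, and CP12-2 over CP12-3 averaged 2.77 ± 0.45.

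RBCS2B over RBCS1B was 0.86, 0.88, 1.25 and 1.03, a mean of 1.01 ± 0.18 per kb of exon. This ratio turned with the length used. RefSeq gives RBCS1B 1894 bases of exon but 546 coding bases, and RBCS2B 935 bases of exon and also 546 coding bases. Per coding base the mean was -0.012, and the plain ratio of CPM was 0.895, 0.908, 1.18 and 1.01. GLDH1 over AT1G32470 averaged -0.44 ± 0.10, the narrowest spread of the 9 pairs.

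**Figure D3:**
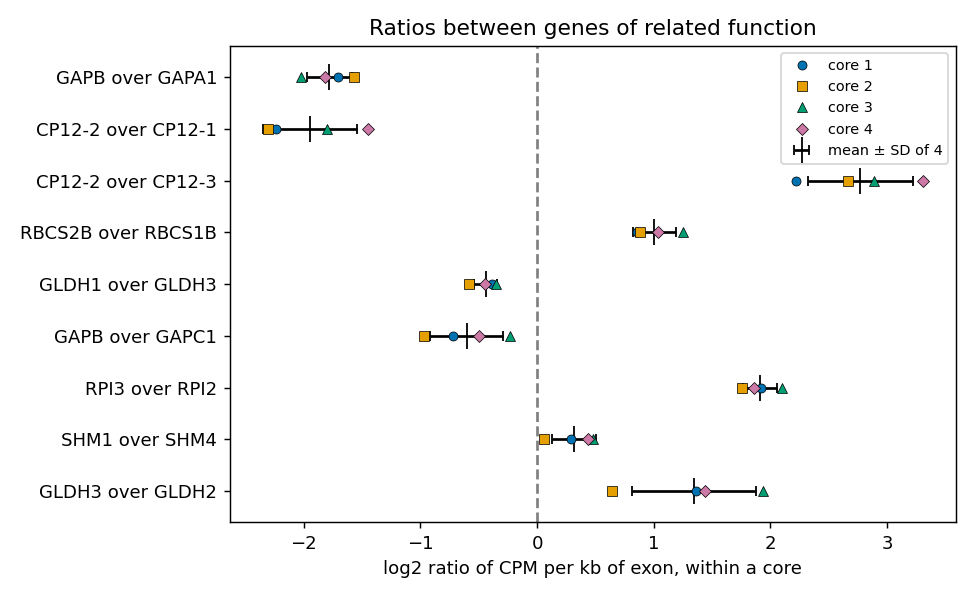
Log2 ratio of CPM per kb of exon between genes of related function within each core, with 1 symbol per core, a tick for the mean and bars for the SD of 4 cores; the dashed line marks equal levels. Every pair stays on 1 side of the line, nearest to it SHM1 over SHM4 in core 2, and GLDH3 over GLDH2 spreads most.

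The other 4 pairs set a member against a cytosolic enzyme or, for AT1G32470, against a further gene of the same complex. GAPB over GAPC1, the cytosolic glyceraldehyde-3-phosphate dehydrogenase of glycolysis, was -0.72, -0.97, -0.23 and -0.50. RPI3 over the cytosolic isomerase RPI2 averaged 1.91 ± 0.15 per kb of exon and 1.29 per coding base, with opposite-strand overlaps of 23.7% in RPI3 and 39.3% in RPI2. SHM1 over SHM4, a cytosolic serine hydroxymethyltransferase, averaged 0.32 ± 0.19 and was 0.06 in core 2. AT1G32470 over AT2G35120 (GLDH2 in the plots), another gene annotated to the glycine cleavage complex, was 1.37, 0.64, 1.94 and 1.44, the widest range of any pair. It narrowed in core 2, where AT1G32470 was lowest, and widened in core 3, where AT2G35120 was lowest.

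A list of 69 further genes around the pathways gave 42 with 1 model, of which 41 passed the filter on low counts. The chi-square test called 35 of the 41, against the same background of 63.9% of all genes tested and 92.5% of those with at least 100 CPM. Core 2 was the lowest core for 22 of the 41 and core 3 the highest for 21. Among all genes tested, 28.3% were lowest in core 2 and 32.0% highest in core 3. Among those with at least 100 CPM the shares were 39.9% and 33.0%. In all 7 genes for rubisco folding and assembly that could be read, core 2 was lowest and core 3 highest, and all 7 were called. The chaperonin subunit CPN60A1 had 564, 404, 724 and 712 CPM in cores 1 to 4, and AT3G47650, a chloroplast DnaJ-type protein taken as BSD2, had 234, 160.1, 245 and 232 CPM. The least abundant per kb in this group were the rubisco chaperone RBCX1, at 25.3 ± 4.08 CPM, and the methyltransferase LSMT, at 60.7 ± 25.4 CPM (SD, n = 4).

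All 6 genes of the thioredoxin system that switches on Calvin cycle enzymes in light were called. The background was 63.9% of all genes tested and 92.5% of those with at least 100 CPM. Of the 6, 4 were lowest in core 2 and highest in core 3, against 28.3% and 32.0% of all genes tested. Thioredoxin TRXF1 had 444, 296, 485 and 411 CPM, and FTRB, the catalytic subunit of ferredoxin-thioredoxin reductase, 142, 114, 165 and 147 CPM. TRXF2 averaged 69.5 ± 13.6 CPM and FTRA1 48.3 ± 6.45 CPM, the lowest per kb. Of 7 genes for photorespiratory transport and nitrogen, 6 were called, 5 were lowest in core 2 and 5 were highest in core 3, beside the same backgrounds. The glycolate and glycerate carrier PLGG1 had 167, 123, 299 and 263 CPM, and the dicarboxylate carrier DIT2.1 had 139, 119, 168 and 167 CPM. The plastid glycolate carrier BASS6, at 9.36 ± 0.31 CPM, was not called, and the glutamate synthase GLU2 had 57.2, 107, 83.8 and 74.6 CPM, highest in core 2.

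Genes of the same chemistry outside the plastid, or of other isoforms, are given last. The backgrounds called are the same, 63.9% of all genes tested and 92.5% of those with at least 100 CPM. Of all genes tested, 28.3% were lowest in core 2 and 32.0% highest in core 3. Of 8 cytosolic counterparts, 6 were called, 3 were lowest in core 2 and 2 highest in core 3. The cytosolic triose phosphate isomerase CTPI had 1309, 1300.2, 1199 and 1362 CPM, and GAPC1 had 1179, 1159, 1059 and 1174 CPM, both lowest in core 3. RPI1 averaged 18.9 ± 2.08 CPM and RPI2 55.7 ± 6.14 CPM, and RPI1 was not called. Of 4 further plastid isoforms, 3 were called and none was highest in core 3. GAPCP1, of the non-photosynthetic plastid glyceraldehyde-3-phosphate dehydrogenases, averaged 168 ± 22.6 CPM, CFBP2 38.2 ± 6.50 CPM, TKL2 79.5 ± 11.9 CPM and GAPCP2 31.7 ± 3.36 CPM, the last not called. Of 8 isoforms of photorespiratory enzymes tested, 6 were called. Over the 9 with 1 model, 2 were lowest in core 2 and 3 highest in core 3. AT2G35120 had 256, 318, 214 and 301 CPM, highest in core 2, and SHM4 had 432, 436, 589 and 498 CPM, lowest in core 1. SHM6 averaged 29.3 ± 4.33 CPM, and SHM5, at 0.14 to 1.50 CPM, was under the filter. The carbonic anhydrase CA3 averaged 17.0 ± 5.26 CPM and was highest in core 2.

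The 24 loci with several models gave almost no counts. They held 1881 counts over 4 cores, against 284045 counts of the 16 loci with 1 model, and their median total was 2.5 counts against 15216. Of their 68 rows, 45 had no count in any core. RPE, PGLP1, GLDP1, SHM2 and CAT2, which encode the epimerase of the regeneration phase, phosphoglycolate phosphatase, a glycine decarboxylase P protein, a serine hydroxymethyltransferase and a leaf catalase, had no count at all. The coding sequence of PGLP1 is also 100% identical to that of another gene, PGLP1B, over all 1089 bases. How reads that match both were counted is not given. Another 14 loci had 1 to 10 counts in all 4 cores together: RBCS1A, RBCS3B, the rubisco activase RCA, GAPA2, PDTPI, FBA1, FBA2, GOX1, GOX2, GGT1, GGT2, GLDT, AGT1 and GLYK. CFBP1 had 12 counts in all and LPD2 had 19.

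The exceptions were few. TKL1 (AT3G60750), the transketolase of the regeneration phase, had 274, 361, 225 and 217 counts in cores 1 to 4, all in model 1. CA1 (AT3G01500), the chloroplast carbonic anhydrase, had 125, 209, 180 and 159 counts, all in model 3. The hydroxypyruvate reductase HPR1 (AT1G68010) had 12, 13, 16 and 8 counts. The same gap ran through the table, where nuclear protein-coding loci had a median mean count of 55.5 with 1 model, 0.5 with 2 models and 0.25 with 3 or more, and nuclear loci with several models held 1.63% to 1.73% of all counts. The counts of the 24 loci were not read as expression levels, and they were kept out of every level and ratio above.

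**Figure D4:**
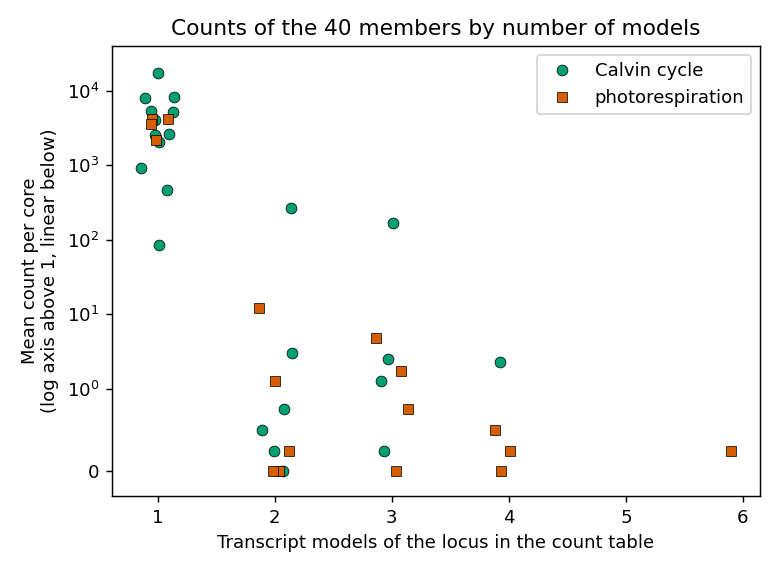
Mean count per core of each of the 40 loci against its number of transcript models in the table, with the points spread sideways for clarity; the vertical axis is logarithmic above 1 and linear below. Loci with 1 model lie between 84.2 and 17374 counts, and of those with several only TKL1, CA1 and HPR1 exceed 10.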

How the data were processed

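Total RNA of 4 rosette cores (Col-0, no treatment) was depleted of ribosomal RNA and sequenced strand-specifically on an Ion Proton, per the labels' protocols. Torrent Suite 4.0.2 was used per the labels' protocols, and HTSeq and TAIR10 per the submitters' processing notes; aligner and counting options: not given in the sources used here. Each deposited value is a raw count of reads, with 1 row per transcript model (40745 rows, 32678 loci) and no scaling by the authors.

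Levels and tests used 26516 nuclear loci with 1 model. CPM were computed with TMM scaling (edgeR 4.0.16, R 4.3.3). Of these loci, 12804 passed a minimum count of 10 scaled to library size. Variation between cores was tested by chi-square against Poisson sampling and with edgeR's one-sided quasi-likelihood dispersion test, both adjusted by Benjamini-Hochberg. Pair ratios add a prior count of 0.5, and levels between genes are per kb of exon. Exon lengths, coordinates (1-based), names and sequences come from RefSeq TAIR10.1, which matched 31912 loci. Scripts were tested on simulated data. The members and lists were chosen with earlier results of these data known, and coding length was added after seeing the data. Alternatives were DESeq2 1.42.0 size factors, no filter, summed models, other lengths and summaries, and leaving out each core. A count of 0 allows up to 3 counts, 0.418 to 0.562 CPM, for counting error only. Genes named among the further 69 are the 2 highest and 2 lowest per kb of each group and those in pairs. Organelle loci had no match in the reference, so the rubisco large subunit is not analysed here.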

Additional observations from a re-analysis of the deposited data

Results flagged for a closer look

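In 3 of 97 checks of genes, ratios and sums, 1 core lay far from the other cores by Dixon's criterion, which by chance alone flags about 1 in 20 groups. AT3G47650, taken as BSD2, had 160.1 CPM in core 2 and 232 to 245 CPM in the others. GAPC1, the cytosolic glyceraldehyde-3-phosphate dehydrogenase, had 1059 CPM in core 3 and 1159 to 1179 CPM in the others. RPI1, a cytosolic ribose-5-phosphate isomerase, had 22.0 CPM in core 2 and 17.8 to 18.0 CPM in the others. None of the 16 members with 1 model was among them.

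Among loci kept out of the comparisons for their several models, 3 had more than 3 counts in every core, the limit that a count of 0 allows. TKL1 had a mean of 269 counts, CA1 of 168 counts and HPR1 of 12.2 counts per core.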

How the results depend on the processing

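Of 48 alternative values for the main results, 42 kept their direction and their side of the threshold, or lay within the spread of cores. With the models of all loci summed, Calvin cycle minus photorespiration in median level became 7.57 log2 units, reversed from -0.27, the range of the core profile 0.43 in place of 0.257, and the pairs with a constant sign numbered 15 of 15; by construction this adds loci with few counts. Without the RBCS genes the level difference was -0.64 and the profile range 0.40, and without the CP12 genes these were -0.035 and 0.138. With no filter the edgeR test called 1 member in place of 0; the cause was not tested. RBCS2B over RBCS1B became -0.012 both with no length term and with coding length, since the coding lengths are equal. With those settings CP12-2 over CP12-1 was -2.47 and -2.55, GLDH1 over AT1G32470 -0.25 and -0.25, and RPI3 over RPI2 1.35 and 1.29, each beyond its spread over cores but of the same sign. Leaving out 1 core at a time gave level differences from -0.38 to -0.16, profile ranges from 0.166 to 0.263, 15 to 16 members beyond counting noise, 0 members by edgeR and 9 pairs. Of 128 adjusted p-values for single members, 124 kept their side of the threshold; the others were CP12-3 (0.308, 0.126 and, against 1.5 times the Poisson variance, 0.105) and PGK1 (0.142). No paired analysis was possible because the labels give 1 group.

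Depth limits CP12-3 most, with 52 to 118 counts per core. Identical copies, opposite-strand overlap and loci with several models limit what the other values mean.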
